A study of Mus musculus with 8 samples.

Results

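The 9 genes examined here are the core of Hedgehog signalling in the ovary: the ligand genes Dhh and Ihh, the receptor genes Ptch1 and Smo, the intracellular inhibitor Sufu, the transcription factor genes Gli1, Gli2 and Gli3, and the ligand-binding protein gene Hhip. They were taken by symbol from a table of read counts for 45583 gene symbols in mouse ovary, and all 9 were found and passed the filter on low counts, which left 16601 genes for testing. Ovaries came from C57/Bl6 females aged 3 weeks, 4 wild type (WT) and 4 lacking ghrelin-O-acyltransferase (GOAT KO), the enzyme that acylates ghrelin and is encoded by Mboat4. The knockout was global, the mice were littermates of crosses between heterozygotes, and each library held the RNA of a single ovary from 1 mouse.

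Hedgehog ligands are secreted proteins that bind the receptor PTCH1 on neighbouring cells. Binding lifts the block that PTCH1 places on SMO, which then works through the primary cilium to free GLI transcription factors from SUFU. Ptch1, Gli1 and Hhip are themselves switched on by the pathway, so their transcripts are widely used as its readout, and the first and last of these encode proteins that restrain it. In growing follicles the granulosa cells make DHH and IHH while the surrounding theca and stromal cells respond, and signals from the oocyte such as GDF9 promote ligand expression in granulosa cells.

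None of the 9 genes differed between the libraries labelled GOAT KO and those labelled WT beyond the spread between mice. In edgeR's quasi-likelihood test, 0 of 9 met the call rule of the study (unadjusted p under 0.05, log2 fold change beyond 0.5 in size), against 1.67% of all genes tested. At an unadjusted p under 0.05 with any fold change, 0 of 9 passed, against 4.62% of all genes, and DESeq2 and limma-voom also called 0. At an adjusted p (Benjamini-Hochberg) under 0.05 the count was 0 of 9 against 0.0241% of all genes, and the smallest adjusted p among the 9 was 0.983. The values of the groups overlapped for all 9 genes, whereas the groups were fully separated for 2.92% of all genes. Levels varied to different degrees between individual mice, with Ihh reaching 2.24 times its lowest level within these 8 ovaries while Smo stayed within 1.08 times. The upper end for Ihh was set by WT 1120 and GOAT KO 1139, and the other 6 libraries ran from 46.4 to 74.1 CPM (counts per 1000000 reads of the TMM-scaled library).

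The promoters of the ligand genes and of the target genes Ptch1 and Hhip are shown because the ligands were highest, by gene counts, in the same pair of libraries while the targets were not. Each is the RefSeq sequence of build GRCm38.p6 from 250 bases before to 50 bases after the annotated start, read 5′ to 3′ on the strand of the gene, with capitals marking the GLI core motif CCACCC on either strand (GGGTGG when it lies on the opposite strand). The windows lie on the minus strand at chr15:98898491-98898790 for Dhh, chr1:74951623-74951922 for Ihh, chr13:63565686-63565985 for Ptch1 and chr8:80057959-80058258 for Hhip. The RefSeq start used for Ptch1 lies inside the longer gene model of Ptch1 given below, so its window is not that of the most upstream annotated start.
Dhh: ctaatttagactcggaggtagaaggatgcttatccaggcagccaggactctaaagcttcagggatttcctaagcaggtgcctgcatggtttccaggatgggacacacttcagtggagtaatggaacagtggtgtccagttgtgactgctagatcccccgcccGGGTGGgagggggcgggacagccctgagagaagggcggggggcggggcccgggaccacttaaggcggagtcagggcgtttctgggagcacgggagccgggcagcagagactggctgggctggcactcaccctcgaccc
Ihh: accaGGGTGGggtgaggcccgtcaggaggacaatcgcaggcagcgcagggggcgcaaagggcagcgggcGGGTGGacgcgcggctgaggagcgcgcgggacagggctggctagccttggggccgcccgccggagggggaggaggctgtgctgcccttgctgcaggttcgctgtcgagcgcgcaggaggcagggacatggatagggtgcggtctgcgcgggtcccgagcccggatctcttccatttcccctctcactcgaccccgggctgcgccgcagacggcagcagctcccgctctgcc
Ptch1: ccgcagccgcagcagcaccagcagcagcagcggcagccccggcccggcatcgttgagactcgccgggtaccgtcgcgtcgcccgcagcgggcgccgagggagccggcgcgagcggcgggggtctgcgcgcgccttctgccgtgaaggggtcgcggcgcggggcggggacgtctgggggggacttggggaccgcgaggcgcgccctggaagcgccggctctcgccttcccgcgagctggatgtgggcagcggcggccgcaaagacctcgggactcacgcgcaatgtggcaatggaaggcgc
Hhip: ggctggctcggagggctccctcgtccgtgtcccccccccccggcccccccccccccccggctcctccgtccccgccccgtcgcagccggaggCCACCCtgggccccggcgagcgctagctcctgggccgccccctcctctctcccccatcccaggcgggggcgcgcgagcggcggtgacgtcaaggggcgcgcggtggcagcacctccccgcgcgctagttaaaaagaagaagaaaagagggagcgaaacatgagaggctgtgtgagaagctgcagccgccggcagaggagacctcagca

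The full GLI consensus GACCACCCA, searched on both strands, was in none of the 8 windows found for the 9 genes (Gli1 had no entry) and in 83 of 32851 windows of this length, or 0.253%. The shorter core CCACCC, which lies within the consensus, was in 10340 of the 32851 windows, or 31.5%. Dhh held 1 core match 88 bases before the start, Ihh 2 at 246 and 181 bases, and Hhip 1 at 158 bases. Gli2 also held 2, and Gli3 and Smo 1 each, while the windows of Ptch1 and Sufu held none. These matches describe the letters of the windows alone.

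Library totals ran from 16147216 to 19481798 counted reads. Counts of Mboat4, which was under the filter, went against the labels. There were 1, 1, 1 and 3 reads in the libraries labelled WT and 5, 7, 7 and 8 in those labelled GOAT KO. Its exons overlap Gm39158 on the opposite strand over 135 bases, and reads there cannot be assigned without strand information. Which part of the gene the knockout removes is not given in the sources used here, so directions below refer to libraries by label. WT 1120 and GOAT KO 1139 stood apart in Cyp17a1, the androgen-producing enzyme of theca cells, which was at 354.6 CPM in WT 1120 and 600.1 in GOAT KO 1139, against 42.3 to 137.5 in the rest. The summed level of 5 adipose markers was 203.0 CPM in GOAT KO 1139 and 7.36 to 18.2 CPM in the other 7 libraries. The log2 fold change of each of the 9 genes and the relations between ligand and target genes are therefore also given for the 6 libraries that remain without these. Granulosa, theca and oocyte markers were present in every library, although Insl3, a product of mature theca cells, did not exceed 0.70 CPM.

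Dhh, which encodes Desert hedgehog, lies on chr15:98891152-98898540 of GRCm38, minus strand (ENSMUSG00000023000). It was read at 47.9, 51.2, 65.5 and 38.8 CPM in WT 1118, 1119, 1120 and 1121, and at 68.5, 51.8, 52.5 and 52.1 CPM in GOAT KO 1139, 1140, 1141 and 1146, from 713 to 1195 reads. The highest library of each group was WT 1120 and GOAT KO 1139, and the other 3 GOAT KO libraries lay within 1 CPM of each other. Means were 50.8 ± 11.1 CPM for WT libraries and 56.2 ± 8.22 for GOAT KO libraries (SD, n = 4 each). The log2 fold change (GOAT KO over WT) was 0.14 with an SE of 0.148 and a 95% interval of -0.18 to 0.47, with an adjusted p of 0.983 by edgeR and an exact permutation p of 0.371. Exact permutation of 4 against 4 libraries cannot go below 0.0286.

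In the 6 libraries, Dhh separated the groups, with WT at 38.8 to 51.2 CPM against GOAT KO at 51.8 to 52.5 CPM, and it was the only 1 of the 9 genes to do so. Such separation was found for 15.8% of all genes with 6 libraries. Its log2 fold change was then 0.18, with an interval of -0.03 to 0.39 and an adjusted p of 0.570 by edgeR. Leaving out WT 1120 alone gave an unadjusted p of 0.0394 in edgeR's test, with an adjusted p of no less than 0.457 under any alternative. Exons of Dhh overlap those of Rhebl1 on the same strand over 546 bases and those of Gm49442 on the opposite strand over 1107 bases, so reads there could be split or shared between these genes.

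Ihh encodes Indian hedgehog, the other granulosa ligand, and lies on chr1:74945315-74951672, minus strand (ENSMUSG00000006538). Its levels were 56.5, 60.2, 102.1 and 52.1 CPM in WT 1118 to 1121, and 104.0, 46.4, 47.8 and 74.1 CPM in GOAT KO 1139, 1140, 1141 and 1146, from 761 to 1863 reads. WT 1120 and GOAT KO 1139 were again the highest of their groups and nearly equal, and the remaining libraries of both groups lay between 46.4 and 74.1 CPM. Group means of 67.7 ± 23.2 and 68.1 ± 27.1 CPM (SD, n = 4 each) were almost the same. GOAT KO over WT gave a log2 fold change of 0.0063 with an SE of 0.275, and its interval of -0.60 to 0.61 still allowed a level in GOAT KO between 0.66 and 1.53 times that in WT. The adjusted p was 0.998 by edgeR. With the 6 libraries the log2 fold change was -0.0054, with an interval of -0.34 to 0.33.

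**Figure D1:**
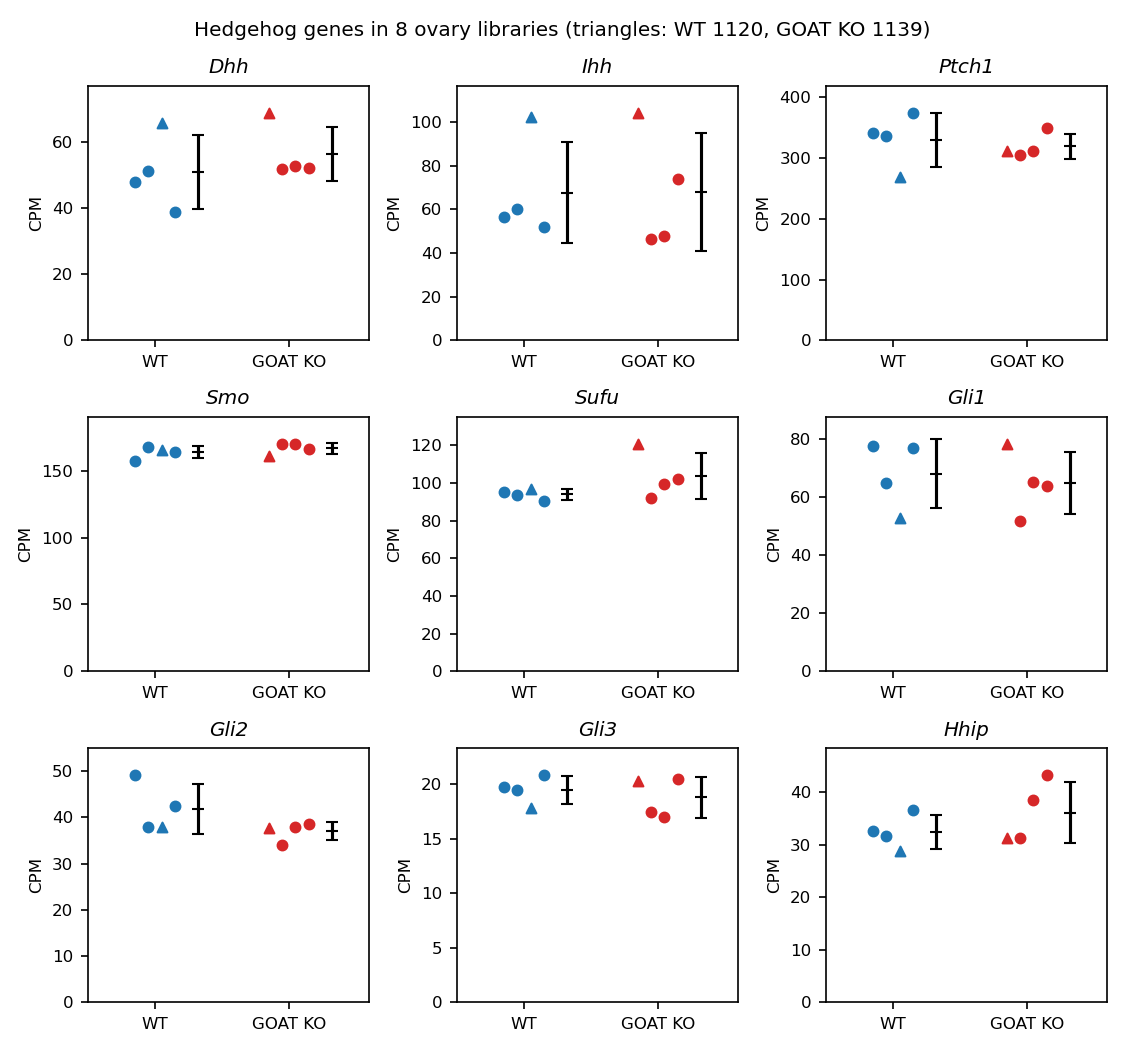
Each panel plots 1 of the 9 Hedgehog genes in CPM from 0, with 1 point per ovary library, blue for WT and red for GOAT KO, triangles for WT 1120 and GOAT KO 1139, and a bar for the mean ± SD of each group (n = 4). Ihh reached 102.1 and 104.0 CPM in the libraries marked by triangles and 46.4 to 74.1 CPM in the rest, while Smo ran from 157.3 to 169.7 CPM in all 8.

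Reads across splice junctions gave a second view of Ihh. The 2 introns of Ihh were crossed, on the CPM scale of junction reads, at 11.6, 17.9, 27.9 and 13.5 in WT 1118 to 1121, and at 24.8, 12.04, 12.7 and 19.9 in GOAT KO 1139, 1140, 1141 and 1146, from 30 to 78 reads per library. WT 1120 and GOAT KO 1139 were thus the highest of their groups in spliced Ihh reads too. For Dhh the junction reads numbered only 11 to 39 per library. The Dhh intron at chr15:98895075-98897969 was listed with 7 to 16 reads in 6 libraries and was not listed for WT 1118 and WT 1120, and the intron at chr15:98894561-98894812 had 26 reads in WT 1120 and 11 to 23 in the others.

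Set on a scale per length (CPM per kilobase of exon), Ihh exceeded Dhh in every library when the whole exon length of Dhh was used. If reads in the stretches shared with Rhebl1 and Gm49442 were not counted for Dhh, the ratio below is too high. The ratio of Ihh to Dhh was 1.702, 1.698, 2.25 and 1.94 in WT 1118 to 1121 and 2.19, 1.30, 1.31 and 2.05 in GOAT KO 1139, 1140, 1141 and 1146, so that the groups overlapped. Shh, the Hedgehog ligand of many embryonic tissues, had 0 or 1 read in each of the 8 libraries and was not tested. Dhh and Ihh thus made up nearly all Hedgehog ligand reads in these ovaries.

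Ptch1 (ENSMUSG00000021466), the receptor that holds SMO inactive and a direct target of the pathway, lies on chr13:63508328-63573598, minus strand. It was at 340.7, 335.7, 267.9 and 373.5 CPM in WT 1118 to 1121 and at 311.0, 304.4, 311.4 and 349.5 CPM in GOAT KO 1139, 1140, 1141 and 1146. The lowest of the 8 was WT 1120 and the highest WT 1121, so the WT values enclosed those of GOAT KO. Means were 329 ± 44.3 and 319 ± 20.5 CPM (SD, n = 4 each), a log2 fold change of -0.046 with an SE of 0.094 and an interval of -0.25 to 0.16. With edgeR the adjusted p was 0.986, and in the 6 libraries the log2 fold change was -0.12 with an interval of -0.28 to 0.03. Ptch1 had the largest number of junction reads of the 9 genes, 5678 over 24 of its 34 annotated introns.

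Smo, the transducer that PTCH1 restrains, lies on chr6:29735503-29761365, plus strand (ENSMUSG00000001761). Its levels were 157.3, 167.7, 165.5 and 164.0 CPM in WT 1118 to 1121 and 161.0, 169.7, 169.6 and 166.3 CPM in GOAT KO 1139, 1140, 1141 and 1146. No library departed from the others, and the groups overlapped. Its log2 fold change was 0.026 with an SE of 0.049 and a 95% interval of -0.08 to 0.13, so a level in GOAT KO between 0.945 and 1.10 times that in WT was allowed. With 6 libraries the value was 0.048, with an interval of -0.07 to 0.17.

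Sufu encodes the protein that holds GLI factors in the cytoplasm, and lies on chr19:46396896-46488804, plus strand (ENSMUSG00000025231). It was at 95.2, 93.5, 97.1 and 90.6 CPM in WT 1118 to 1121 and at 120.6, 92.0, 99.4 and 102.4 CPM in GOAT KO 1139, 1140, 1141 and 1146. GOAT KO 1139 was the highest, and GOAT KO 1140 lay inside the WT range. Its log2 fold change was 0.14 with an SE of 0.078 and an interval of -0.03 to 0.31, at an adjusted p of 0.983 by edgeR. Over 6 libraries the value was 0.073, with an interval of -0.06 to 0.21. Without GOAT KO 1140 alone, Sufu had an unadjusted p of 0.0320 in edgeR's test, with an adjusted p of no less than 0.545 under any alternative.

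Gli1, the activator whose transcription depends on Hedgehog input, lies on chr10:127329882-127341974, minus strand (ENSMUSG00000025407). It was at 77.9, 65.0, 52.8 and 77.2 CPM in WT 1118 to 1121 and at 78.3, 52.0, 65.2 and 64.0 CPM in GOAT KO 1139, 1140, 1141 and 1146. WT 1120 was the lowest of its group and GOAT KO 1139 the highest of its group, so that these libraries, both high in ligand, lay at opposite ends for Gli1. Means were 68.2 ± 11.9 and 64.9 ± 10.8 CPM (SD, n = 4 each), with a log2 fold change of -0.071, an SE of 0.140 and an interval of -0.38 to 0.24. Exons of Gli1 overlap Arhgap9 over 62 bases and Gm47200 over 265 bases on the opposite strand, and reads there cannot be assigned without strand information.

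Leaving out the pair of libraries that stood apart moved Gli1 further than any other of the 9 genes. In the 6 libraries its means were 73.3 ± 7.25 and 60.4 ± 7.30 CPM (WT and GOAT KO, SD, n = 3 each), and WT 1119 at 65.0 CPM and GOAT KO 1141 at 65.2 CPM kept the groups overlapping. The log2 fold change was then -0.28, with an interval of -0.50 to -0.06, an unadjusted p of 0.0178 and an adjusted p of 0.452 by edgeR. With 6 libraries 2 of 9 genes, Gli1 and Gli2, were under an unadjusted p of 0.05, against 9.46% of all genes tested. Neither passed the fold threshold, so 0 of 9 were called against 2.39% of all genes, and 0 of 9 passed an adjusted p of 0.05 against 0.12%.

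Gli2, the main activator downstream of SMO, lies on chr1:118834132-119053619, minus strand (ENSMUSG00000048402). Its values were 49.1, 37.8, 37.9 and 42.5 CPM in WT 1118 to 1121 and 37.6, 34.1, 38.0 and 38.5 CPM in GOAT KO 1139, 1140, 1141 and 1146. WT 1118 was the highest, and the lowest WT libraries lay among those of GOAT KO. The log2 fold change of -0.17 had an SE of 0.091, an interval of -0.37 to 0.03 and an unadjusted p of 0.0844 in edgeR's test, the smallest p of the 9 genes. Over 6 libraries the value was -0.23 with an interval of -0.45 to -0.0047 and an adjusted p of 0.524.

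Gli3, which in the absence of ligand is processed to the main repressor of the pathway, lies on chr13:15463235-15730026, plus strand (ENSMUSG00000021318). It was at 19.7, 19.4, 17.8 and 20.8 CPM in WT 1118 to 1121 and at 20.3, 17.4, 17.0 and 20.5 CPM in GOAT KO 1139, 1140, 1141 and 1146, from 285 to 382 reads. Both groups covered nearly the same range, with a log2 fold change of -0.049, an SE of 0.092 and an interval of -0.25 to 0.15. Over 6 libraries the value was -0.13, with an interval of -0.35 to 0.09 and an adjusted p of 0.682 by edgeR.

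Hhip encodes a membrane protein that binds and sequesters Hedgehog ligands, and lies on chr8:79965851-80058006, minus strand (ENSMUSG00000064325). It was at 32.5, 31.7, 28.8 and 36.6 CPM in WT 1118 to 1121 and at 31.4, 31.4, 38.6 and 43.2 CPM in GOAT KO 1139, 1140, 1141 and 1146. GOAT KO 1141 and 1146 lay above every WT library, and GOAT KO 1139 and 1140 lay inside the WT range. The log2 fold change was 0.16 with an SE of 0.115 and an interval of -0.10 to 0.41. With 6 libraries the value was 0.17, at an adjusted p of 0.644 by edgeR.

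**Figure D2:**
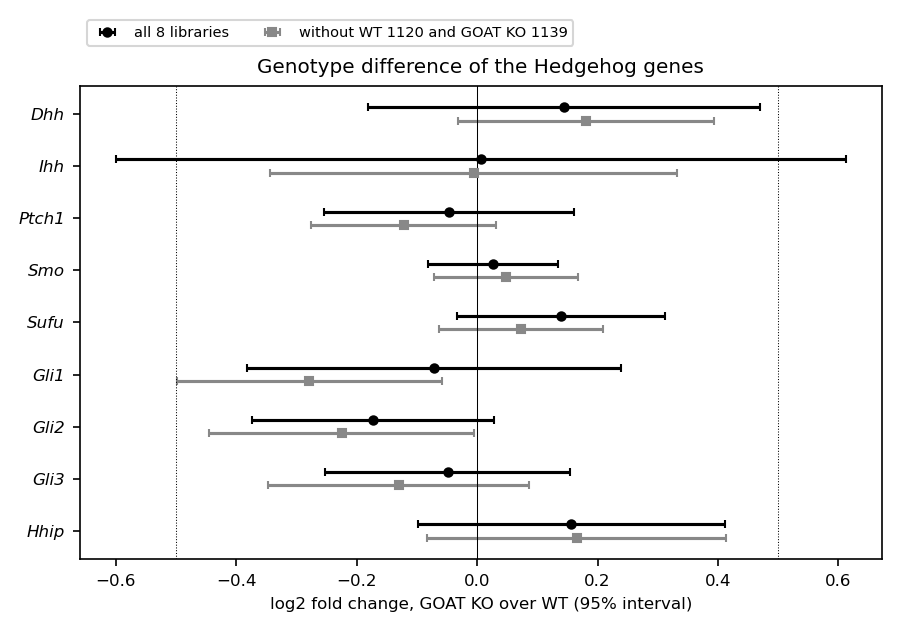
Points are log2 fold changes of GOAT KO over WT by edgeR for the 9 genes, with bars for 95% intervals, black for 8 libraries and grey for the 6 without WT 1120 and GOAT KO 1139, and dotted lines at the call threshold of 0.5 in either direction. With 8 libraries all 9 intervals include 0 and that of Ihh, from -0.60 to 0.61, is the widest, while with 6 libraries the intervals of Gli1 and Gli2 lie below 0.

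Among the 3 transcripts used as a readout of the pathway, Gli1 and Ptch1 had log2 fold changes below 0 and Hhip above 0, and none passed the test. In whole ovary, a lower level can come from fewer cells that express a gene or from less RNA per cell, and these cannot be told apart here. Theca and steroidogenic markers summed to 2156 to 3277 CPM in the WT libraries and to 2680 to 3402 CPM in the GOAT KO libraries, and 0 of the 6 tested were called. The highest sum of each group was in WT 1120 and GOAT KO 1139. Cyp17a1 and Star were highest of their group in both libraries, and the other markers were not. Hsd3b1, the largest part of the sum, was lowest of its group in GOAT KO 1139, at 1848 CPM against 2128 to 2281. Granulosa markers summed to 5439 to 7354 CPM in the WT libraries and to 6523 to 7524 CPM in the GOAT KO libraries. The highest sum of each group was again in WT 1120 and GOAT KO 1139, the libraries highest in Dhh and Ihh. Single markers went both ways. Amh, Foxl2, Inhbb and Cyp19a1 were highest of their group in both libraries, Fst and Nr5a2 lowest in both, and the rest differed between them. GOAT KO 1141, low in Ihh, had a sum of 7382 CPM, above WT 1120. With 8 libraries 1 of 10, Inhba (an activin subunit), was called as higher in GOAT KO, against 1.67% of all genes tested. With 6 libraries 4 of 10 were (Fshr, Inhba, Inhbb and Cyp19a1), against 2.39%. Log2 fold changes of Amh and Foxl2 were below 0, and those of the other 8 of 10 above. Smooth muscle markers, which mark the outer theca and vessels, summed to 1739 to 2034 CPM in the WT libraries and to 1726 to 2215 CPM in the GOAT KO libraries, with 0 of 6 called. Of oocyte markers 1 of 10 (Sohlh1, higher), of leukocyte markers 1 of 5 (Lyz2, lower) and of adipose markers 4 of 4 (higher, and 1 of 4 with 6 libraries) were called, beside the same shares of all genes, and none of the surface epithelium (6), oviduct (3), endothelium (5) or blood (5) markers tested was. Their part in the Hedgehog values was not tested.

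Per kilobase of exon, Smo had the highest mean of the 9 genes at 29.4 ± 0.760 CPM per kilobase (SD, n = 8), above Ptch1 in every library and without overlap, but below Ihh in WT 1120 and GOAT KO 1139. Ptch1 at 22.9 ± 2.29 and Ihh at 22.3 ± 7.66 CPM per kilobase followed and were not separated, with Ptch1 the higher in 6 of 8 libraries. Gli1 at 13.3 ± 2.13, Sufu at 12.9 ± 1.25 and Dhh at 12.2 ± 2.15 CPM per kilobase also overlapped each other. The lower end of the order was clear in every library, with Gli2 at 5.74 ± 0.657, Hhip at 3.78 ± 0.528 and Gli3 at 1.99 ± 0.158 CPM per kilobase and no overlap between neighbours. The transcript of the repressor-forming factor Gli3 was thus the lowest of the 9 in all libraries.

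**Figure D3:**
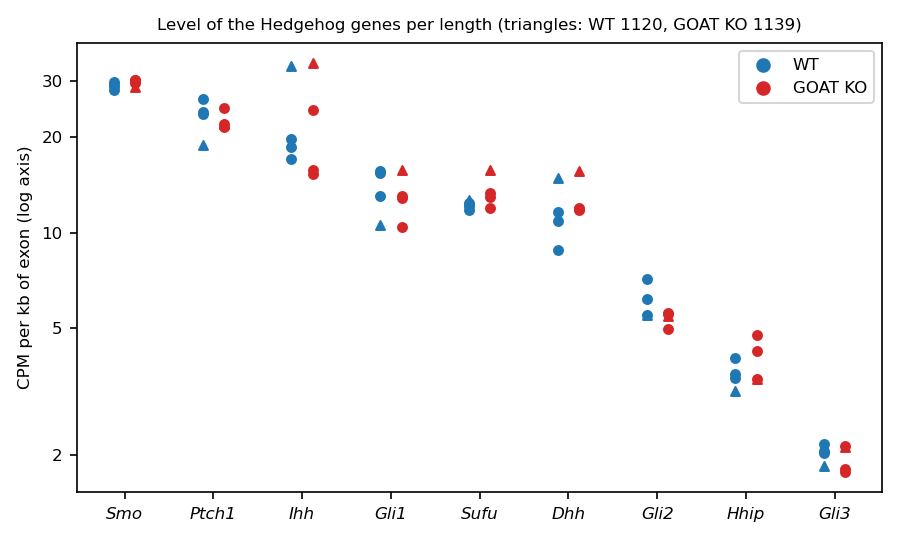
The level of each gene in CPM per kilobase of exon (log axis) is plotted for 8 libraries, blue for WT and red for GOAT KO, with triangles for WT 1120 and GOAT KO 1139, and genes are ordered by their mean. Smo lies at 28.0 to 30.2 and Gli3 at 1.77 to 2.17 CPM per kilobase, and the range of Ihh, from 15.2 to 34.1, spans that of Ptch1.

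Variation between mice differed widely among the 9 genes. The coefficient of variation over the 8 libraries was 34.4% for Ihh, 17.7% for Dhh, 16.0% for Gli1 and 13.97% for Hhip, and 2.59% for Smo. Of the 2885 genes within 0.5 log2 units of the mean level of Ihh, 99.3% varied less, and the median of those genes was 7.10%. For Dhh 94.8% and for Gli1 93.4% of genes of like level varied less, whereas for Smo only 2.73% did. Gli3, at 7.92%, lay under the 9.83% median of genes at its level.

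To describe that variation, genes were ranked by the root mean square difference of their mean-centred log2 CPM over the 8 libraries among the 16600 other genes tested. Nearest to Ihh, whose own deviation was 0.433 log2 units, were Ksr1 (a scaffold of the RAF kinase cascade) at a difference of 0.0868, Chst8 at 0.0998 and Cebpb (a transcription factor of luteinizing granulosa cells) at 0.119. Ksr1 was at 84.0 CPM in WT 1120 and 87.0 in GOAT KO 1139, and at 36.3 to 54.1 CPM in the rest. Nearest to Dhh, at an own deviation of 0.239, were Wnt6 (a secreted signalling protein) at 0.0777, Traf4 at 0.0820 and Yrdc at 0.0851. Nearest to Gli1, at an own deviation of 0.222, were Notch3 (a receptor of vascular smooth muscle and pericytes) at 0.0732, Palmd at 0.0895 and Pcnxl2 at 0.103. Notch3 ran from 24.0 CPM in WT 1120 to 34.6 CPM in WT 1121.

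**Figure D4:**
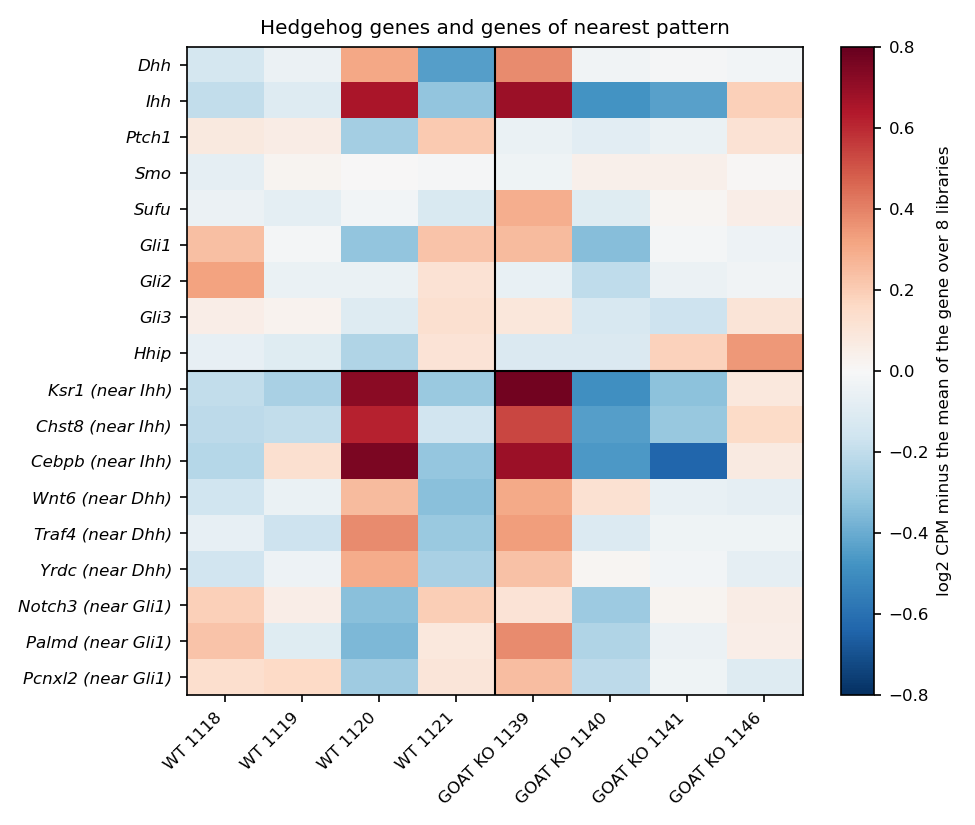
Colour gives log2 CPM minus the mean of the gene over 8 libraries, red for above and blue for below, with the 9 Hedgehog genes in the upper block, the genes nearest in pattern to Ihh, Dhh and Gli1 in the lower block, and a vertical line between WT and GOAT KO. Dhh and Ihh are above their means in WT 1120 and GOAT KO 1139, and Gli1 is below its mean in WT 1120 and above it in GOAT KO 1139.

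Whether a ligand and the target transcripts moved together between mice was examined in 6 relations of log2 CPM over the 8 libraries. Dhh and Ptch1 were inversely related, with Pearson's r of -0.80 (exact permutation p = 0.0241, adjusted over the 6 relations 0.145) and Spearman's rho of -0.69 (exact permutation p = 0.0694, adjusted 0.416). Removing the group means left r at -0.80, and leaving out GOAT KO 1139 and WT 1121, the libraries farthest from the median of Dhh, gave -0.87. Over the 6 libraries r was -0.76, with an exact permutation p of 0.0708. Spearman's rho was weaker in all of these. It was -0.57 with group means removed (exact permutation p = 0.151). Without the libraries farthest from the median, and over the 6 libraries, it was -0.54 (exact permutation p = 0.297 in both). The relation did not pass the correction for 6 tests.

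Dhh with Gli1 gave r = -0.30 and rho = -0.07, at exact permutation p-values of 0.475 and 0.882 (adjusted 0.570 and 0.882). Dhh with Hhip gave r = -0.45 and rho = -0.31, at exact permutation p-values of 0.254 and 0.462 (adjusted 0.534 and 0.882). For Ihh, r was -0.45 with Ptch1, 0.0075 with Gli1 and -0.32 with Hhip, at exact permutation p-values of 0.267, 0.986 and 0.429 (adjusted 0.534, 0.986 and 0.570). The corresponding rho values were -0.14, 0.26 and -0.21, at exact permutation p-values of 0.752, 0.536 and 0.619 (each 0.882 when adjusted). Without WT 1120 and GOAT KO 1139, which are also the libraries farthest from the median of Ihh, r was 0.52 with Ptch1, 0.21 with Gli1 and 0.49 with Hhip, so the negative values for Ihh rested on that pair. Without the 2 libraries farthest from its median, Dhh gave r of -0.69 with Gli1 and -0.39 with Hhip. Over the 6 libraries Dhh gave r of -0.65 and rho of -0.54 with Gli1, at exact permutation p-values of 0.197 and 0.297 (0.594 for rho when adjusted), and r of 0.0093 with Hhip.

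**Figure D5:**
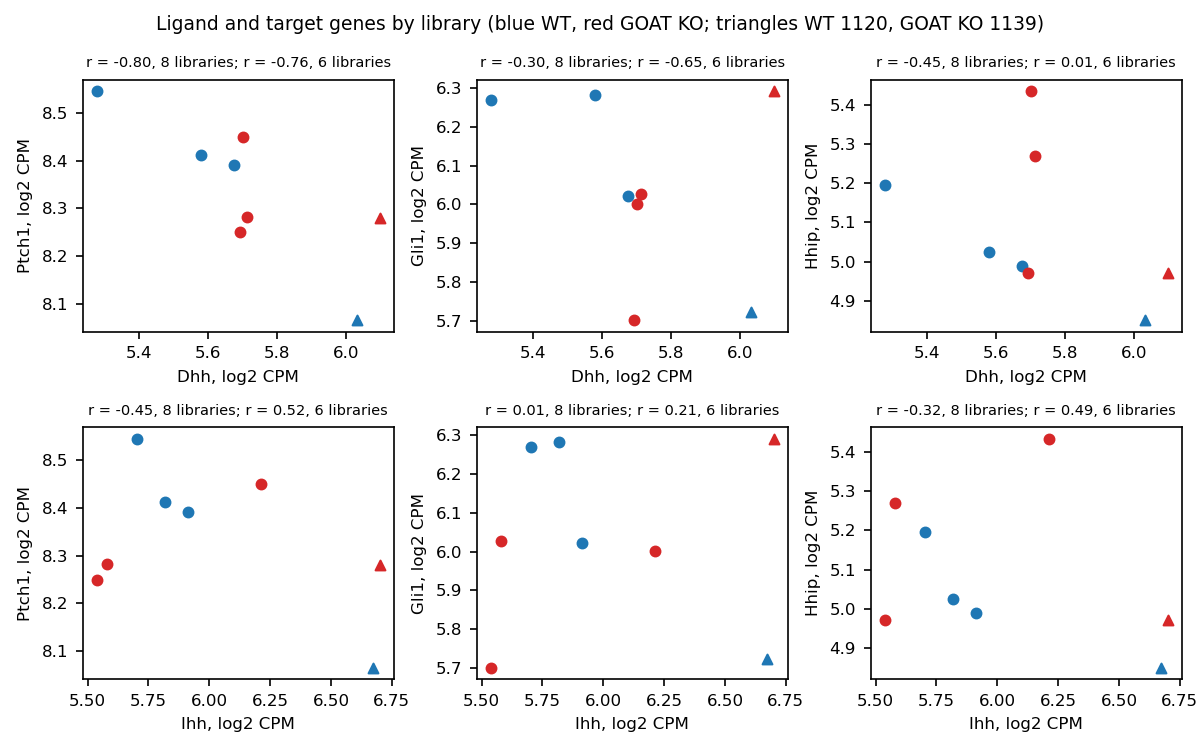
Each panel plots log2 CPM of a ligand gene (Dhh above, Ihh below) against a target gene (Ptch1, Gli1 or Hhip) with 1 point per library, blue for WT, red for GOAT KO and triangles for WT 1120 and GOAT KO 1139, and gives Pearson's r for 8 and for 6 libraries. Ptch1 is lower where Dhh is higher (r = -0.80 with 8 libraries), and the sign for Ihh and Ptch1 differs between 8 libraries (-0.45) and 6 (0.52).

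Of 45 further genes of the pathway, 43 were tested, and Shh and Disp2 were under the filter. None of the 43 was called by edgeR with 8 libraries, 0 had an unadjusted p under 0.05, and DESeq2 and limma-voom also called 0. Of 12 tested genes of ligand release and reception, 8 had a log2 fold change above 0 and 4 below, with a median of 0.05 against -4e-04 for all genes tested. Gpc3 (a glypican that competes for ligand), at a log2 fold change of 0.14, had the smallest p of that list, and Gas1 (a ligand co-receptor) was among the 3 smallest. Hhat, which palmitoylates Hedgehog ligands and belongs to the same acyltransferase family as GOAT, averaged 12.4 ± 1.42 CPM over the WT libraries and 13.1 ± 0.532 CPM over those of GOAT KO (SD, n = 4 each), with overlap.

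Among 23 genes of transduction and cilium function, 11 lay above 0 and 12 below, with a median log2 fold change of -0.0025. Evc2, a ciliary partner of SMO, had the smallest p of the list at a log2 fold change of 0.12, with values of 185.9, 215.4, 185.2 and 197.1 CPM in WT 1118 to 1121 and 206.7, 216.2, 225.5 and 205.6 CPM in GOAT KO 1139, 1140, 1141 and 1146. Arrb2, an arrestin, was next at -0.18, followed by Mgrn1, a ubiquitin ligase. In the 6 libraries Kif3a, a motor subunit needed to build the cilium, had a log2 fold change of -0.24, with an unadjusted p of 0.0061 and an adjusted p of 0.403 by edgeR. It was at 91.1, 78.4 and 82.1 CPM in WT 1118, 1119 and 1121 and at 71.0, 72.9 and 69.4 CPM in GOAT KO 1140, 1141 and 1146, and at 57.3 in WT 1120 and 64.4 in GOAT KO 1139. WT 1120 was the lowest of all 8, so the groups separated only without it, as 15.8% of all genes did with 6 libraries.

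Of 9 genes reported as targets of the pathway in other tissues, 2 lay above 0 and 7 below, with a median log2 fold change of -0.09 and of -0.18 over the 8 tested with 6 libraries. The smallest p-values were those of Nr2f2 (the stromal and theca nuclear receptor COUP-TFII) at a log2 fold change of -0.17, Bcl2 (a survival factor) and Ccnd1 (cyclin D1). Nr2f2 was at 133.5, 111.1, 111.4 and 129.9 CPM in WT 1118 to 1121 and at 92.9, 105.5, 103.2 and 130.4 CPM in GOAT KO 1139, 1140, 1141 and 1146. GOAT KO 1146 lay inside the WT range and the other 3 below it. With 6 libraries Sfrp1, a secreted Wnt antagonist, had a log2 fold change of -0.18, with an unadjusted p of 0.0168 and an adjusted p of 0.451 by edgeR. In all, 3 of 42 further genes tested with 6 libraries, Kif3a and Sfrp1 among them, were under an unadjusted p of 0.05 in edgeR's test, against 9.46% of all genes, and 0 were called.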

How the data were processed

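The authors sequenced RNA from ovaries of 4 WT and 4 GOAT KO mice as 50 bp single reads, 1 library per mouse. Per the labels and processing notes, reads were aligned to mm10 (GRCm38) with TopHat2 2.0.14 and assembled with StringTie 1.0.4. The authors deposited unnormalized whole-number counts per gene symbol and counts of reads across splice junctions. The counting tool and its strand setting are not given in the sources used here. The deposited transcript assemblies were not used here.

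Groups and animal numbers were taken from the labels. The counts of all 8 libraries were tested with edgeR 4.0.16 (quasi-likelihood, TMM, filterByExpr with a minimum count of 10 and a minimum total of 15) in R 4.3.3, and p-values were adjusted by Benjamini-Hochberg across the genes that passed the filter. The call rule was that of the study, an unadjusted p under 0.05 and a log2 fold change beyond 0.5 in size. The study left out 1 library per group without naming it in its text. Alternatives were the 6 libraries without WT 1120 and GOAT KO 1139, taken from an earlier analysis of these data as the set of the study, each library left out, RLE size factors, no filter, DESeq2 1.42.0, limma-voom (limma 3.58.1), other thresholds and junction reads. Single values were compared by two-sided exact permutation (SciPy 1.17.1). Levels per length used exon unions of a later GENCODE annotation of GRCm38, into which junctions were also placed, and promoters came from RefSeq. The fitting script was tested on simulated data.

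Libraries of a group differed from each other by more than counting noise, so none was counted as a duplicate. The depth of 16147216 to 19481798 reads gave at least 285 reads for each of the 9 genes in every library. Intervals are 95% intervals of the edgeR fit. P-values measure the spread between these mice. The 9 genes, the lists of further Hedgehog genes and of cell type markers, and the tests were chosen with earlier results of these data known. Named genes are the 9, Mboat4, further Hedgehog genes called or with the 3 smallest p-values of their list, and the 3 genes nearest in pattern to Ihh, Dhh, Gli1, Ptch1 and Hhip. Kif3a, Sfrp1, Hhat, Shh, Disp2, Cyp17a1, Hsd3b1, Star, Insl3, Amh, Foxl2, Fst, Nr5a2, Inhba, Fshr, Inhbb, Cyp19a1, Sohlh1 and Lyz2 were named after their values were seen. Some genes that this rule names are not reported here.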

Additional observations from a re-analysis of the deposited data

Results flagged for a closer look

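In 3 of the 18 groups of 4 libraries examined for the 9 genes, 1 library lay far from the other 3, with a gap to its nearest neighbour that took more of the whole range of the group than Dixon's 95% critical value for 4 samples. Chance gives this in about 1 of 20 groups. Dhh in GOAT KO 1139, at 68.54 CPM, stood above 51.8 to 52.5 CPM in the other GOAT KO libraries, a gap of 0.955 of the range. The few junction reads of Dhh were instead highest in GOAT KO 1141. Ihh in WT 1120, at 102.1 CPM, stood above 52.1 to 60.2 CPM in the other WT libraries, a gap of 0.837. Ptch1 in GOAT KO 1146, at 349.5 CPM, stood above 304.4 to 311.4 CPM in the other GOAT KO libraries, a gap of 0.845.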

How the results depend on the processing

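The count of 0 called Hedgehog genes held under all 15 alternatives, and so did that of 0 further pathway genes under the 13 run for them. Those 13 left out junction reads. In edgeR's test 3 of 37 further genes were under an unadjusted p of 0.05 with junction reads, and 2 of 32 with junctions listed in all 8 libraries. Of the 43 tested from gene counts, 2 were without WT 1119, 2 without WT 1120, 1 without GOAT KO 1139 and 1 without GOAT KO 1146. Of all genes tested, 278 were called, against 691 without a filter on low counts, 473 at a log2 fold change over 0.3, 4 at an adjusted p under 0.05 and 231 to 437 with single libraries left out, the last without WT 1120. No other alternative moved that count by over 1.5 times. The log2 fold change of Ihh, 0.0063, turned to -0.00066 without a filter, -0.027 with limma-voom, -0.0054 with 6 libraries, -0.036 with junction reads and -0.039 with junctions listed in all 8 libraries, and ran from -0.27 without GOAT KO 1139 to 0.27 without WT 1120. With single libraries left out Ptch1 ran from -0.14 to 0.017 (above 0 without WT 1121) and Gli1 from -0.18 to 0.020 (above 0 without GOAT KO 1140). Junction reads gave 0.21 for Gli1 and 0.20 for Gli3, and junctions listed in all 8 libraries 0.18 for Gli1 and -0.085 for Dhh. That last set was chosen after seeing the data, since a junction was often missing from a library's list, and left Gli2 and Gli3 with too few reads to test. Directions of Gli2, Hhip, Smo and Sufu held throughout, but sizes moved with single libraries left out: Dhh from 0.14 to 0.032 without WT 1121, 0.035 without GOAT KO 1139 and 0.29 without WT 1120, Hhip from 0.16 to 0.059 without GOAT KO 1146 and 0.10 without WT 1120, Gli2 from -0.17 to -0.088 without WT 1118, and Sufu from 0.14 to 0.058 without GOAT KO 1139. Gli3 ran from -0.094 without WT 1120 to -0.0055 without GOAT KO 1141, and Smo from 0.0077 without WT 1118 to 0.042 without GOAT KO 1139. Junction reads gave 0.35 for Dhh, -0.072 for Ptch1, 0.088 for Smo and 0.22 for Sufu, and junctions listed in all 8 libraries gave 0.038 for Hhip, -0.14 for Ptch1 and 0.088 for Smo. The unadjusted p fell under 0.05 for Gli1 with 6 libraries, for Dhh without WT 1120, for Sufu without GOAT KO 1140, and for Gli2 with 6 libraries, without WT 1119 and without WT 1120. In the 6 libraries the relation of Dhh and Ptch1 was -0.76 and no longer under an unadjusted p of 0.05, and that of Dhh and Hhip turned to 0.0093. Those of Ihh turned to 0.52 with Ptch1 and 0.49 with Hhip, both in the 6 libraries and without the 2 farthest from the median of Ihh. The cause of these changes was not tested. No paired analysis was possible because the groups share no replicate numbers. Depth limits the junction reads of Gli3, 9 to 17 per library, and of Dhh, 11 to 39.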

Other observations

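Genes nearest in pattern to Ptch1 over the 8 libraries, whose own deviation was 0.138 log2 units, were Med13l, Sbf2 and Acap2. Med13l, a subunit of the Mediator complex, was lowest at 77.1 CPM in WT 1120 and highest at 100.3 CPM in WT 1121, the libraries in which Ptch1 was also lowest and highest. Nearest to Hhip, at an own deviation of 0.181, were Vstm2b, Kcnd3 and Pvt1. Kcnd3, which encodes a potassium channel subunit, was at 46.8 CPM in GOAT KO 1146 and 40.6 CPM in GOAT KO 1141, the libraries highest in Hhip, and at 31.1 to 38.8 CPM in the other 6.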
